A study of Saccharomyces eubayanus and Saccharomyces cerevisiae x Saccharomyces eubayanus with 20 samples.

Results

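In an interspecific hybrid, most genes are present as 1 copy from each parent, and the ratio of their transcripts shows whether both copies answer a change of carbon source alike. The copy ratio was compared here between maltose and glucose in hybrid HTSH020, a strain obtained by mating spores of the Himalayan S. eubayanus isolate CDFM21L.1 with spores of the S. cerevisiae ale strain CBC-1 and labelled HTS020, MATa/MATα Mal+ Mtt+. A pair was formed where exactly 1 gene of each subgenome carried the same systematic S. cerevisiae name, which held for 4717 of 5478 names in 11292 gene models. Of these pairs, 3540 had a mean of at least 10 FPKM in both copies over the 6 hybrid libraries and were tested, and 1177 were not. FPKM are fragments counted per length of the gene, scaled to the fragments counted on all genes of the library. The pairs were thus chosen by name and not by a measured difference. Names with several models in a subgenome, among them the maltose transporter and maltase genes of the MAL loci, form no such pair.

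The series holds 20 RNA libraries of 4 strains, of which 4 enter the comparison, 2 hybrid cultures on glucose and 2 on maltose. All were shake-flask cultures on synthetic medium with 20 g liter−1 of the sugar, sampled in mid-exponential phase, and each hybrid group consists of biological duplicates of a single strain. The 2 hybrid cultures on maltotriose entered the filter and the estimate of the spread, but not the contrast of maltose with glucose. S. eubayanus strains IMX1765 (MATa/MATα Sesga1Δ::ScMAL13 on both homologues, with ScMAL13 under the constitutive ScPGK1 promoter) and IMX1939 (the same with Semalt1Δ/Semalt1Δ) were used side by side, 2 cultures on each sugar. The hybrid carries no such cassette. Between 17695093 and 23175074 reads were counted on genes in the glucose and maltose libraries of the hybrid, and the S. eubayanus models took 49.4% to 50.6% of them, so that both subgenomes were represented nearly equally. The free-text description of the first maltose library names maltotriose medium, and those of both maltotriose libraries name maltose medium, whereas titles and the carbon source field name the sugar used here. Over all pairs tested, the median size of the difference in log2 ratio between the first and second maltose libraries was 0.137, against 0.450 and 0.4995 between the first maltose library and the maltotriose libraries and 0.142 and 0.148 between it and the glucose libraries. The effect of leaving out that library is given for the called pairs and, as counts, for the larger gene lists.

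As background, baker's and brewer's yeasts take up glucose through hexose transporters and, while glucose is abundant, repress genes for other sugars, respiration and gluconeogenesis. This repression acts through hexokinase 2, the kinase Snf1 and repressors such as Mig1, and through cyclic AMP signalling by Ras. Maltose enters by proton symport and is split inside the cell into glucose by maltase, and its genes are switched on by MAL activators. Lager brewing yeasts are hybrids of the same 2 species, so that the regulators of each parent meet the promoters of both.

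On maltose, the balance between the subgenomes changed for a limited number of pairs and in both directions, while the median ratio of the library stayed near 0. Among 3540 pairs, 184 (5.2%) changed their ratio in limma at a Benjamini-Hochberg adjusted p under 0.05, 110 (3.11%) toward S. eubayanus and 74 (2.09%) toward S. cerevisiae. The ratio is the log2 of (S. eubayanus FPKM + 1) over (S. cerevisiae FPKM + 1). A change of 1 thus doubles the ratio of the copies, and a positive change means a shift toward S. eubayanus. For copies with few FPKM the added 1 draws the log2 ratio toward 0. The change between the sugars can then come out smaller, or larger where the copies are low on 1 sugar only. Without the first maltose library the fit rests on a single maltose culture. None of the 184 pairs then changed the sign of its change, but part of them lost the call and other pairs were called instead. Leaving out either glucose culture or the second maltose culture lowered the number of called pairs. Of the 184 pairs, 25 had a copy below the mean of 10 FPKM over the glucose and maltose cultures and were tested because of its level on maltotriose. With a filter at 1 FPKM, 24 of these 25 were called, in a fit that still drew on the maltotriose cultures for the spread. In each of the fits without a culture, 46 of the 184 pairs were called, 28 toward S. eubayanus and 18 toward S. cerevisiae.

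The median change over all pairs tested was 0.00654, with quartiles of −0.132 and 0.1502, and 91.6% of pairs differed by less than 0.5 in either direction. The library medians of the log2 ratio were 0.0237 and −0.00186 on glucose and 0.0127 and 0.0227 on maltose, with overlap between the sugars (exact permutation test of 2 against 2 libraries, two-sided p = 1, where 0.333 is the smallest possible). Replicates differed by a median of 0.102 in log2 ratio on glucose and 0.137 on maltose. Over all pairs tested, the median size of change between the sugars was 0.142. The called pairs, which were selected for their change, had a median size of change of 0.715. Of the called pairs, 57 changed at least 2-fold, 31 toward S. eubayanus and 26 toward S. cerevisiae, of 63 pairs with such a change among all tested. In all 184 called pairs the cultures of the sugars did not overlap, which was also the case for 52.1% of all pairs tested. The higher of the 2 copies was exchanged in 79 called pairs, from S. cerevisiae to S. eubayanus in 48 and the other way in 31, and in 61 of these it held for every culture. Closest to the threshold, SOD1 (0.20, limma, Benjamini-Hochberg adjusted p = 0.0473), MAG1 and TRS20 lay just inside and ICL2 (−0.75, limma, Benjamini-Hochberg adjusted p = 0.0508), MHT1 and GGC1 just outside. The call of SOD1 was lost when any single glucose or maltose culture was left out.

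**Figure D1:**
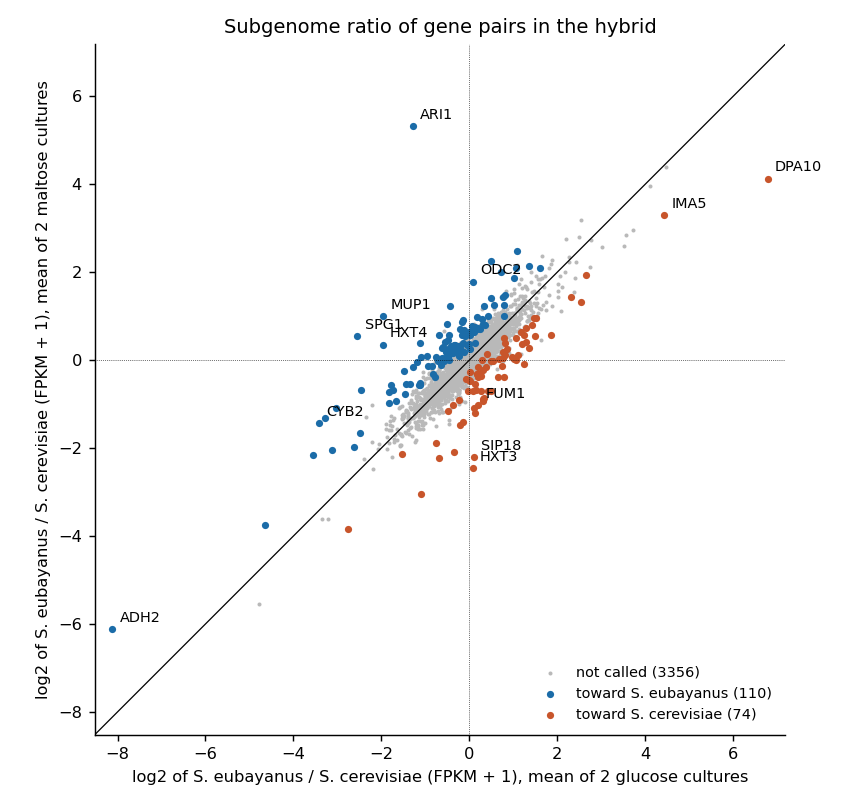
Mean log2 ratio of the S. eubayanus over the S. cerevisiae copy on glucose (horizontal) and maltose (vertical), each over 2 cultures, for 3540 pairs of the hybrid. Most points lie along the diagonal of equal ratio, 110 called pairs lie above it (blue) and 74 below it (red), and ARI1 stands farthest away.

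Of the genes for maltose and other alpha-glucosides, 2 pairs were testable, IMA5 and MAL33, and both moved toward S. cerevisiae. IMA5 encodes an isomaltase, an enzyme that splits alpha-1,6-linked glucosides. SeIMA5 had 33.2 and 31.3 FPKM on glucose and 527 and 512 FPKM on maltose, and ScIMA5 had 0.508 and 0.583 FPKM on glucose and 46.3 and 58.2 FPKM on maltose. Both copies rose, by 3.97 and 5.10 on the log2 scale (limma, Benjamini-Hochberg adjusted p = 4.45e-06 and 1.25e-05), and the S. eubayanus copy remained the higher one in every culture. The glucose values of ScIMA5 rest on 16 and 18 reads. The log2 ratio of IMA5 was 4.50 and 4.35 on glucose and 3.48 and 3.12 on maltose, a change of −1.13 ± 0.19 (SE, limma, Benjamini-Hochberg adjusted p = 0.0101). MAL33 is a gene of a MAL activator, the class of zinc-cluster factors that switch on maltose genes. Its S. eubayanus partner is the second of the parts into which the model of SeMALR1 is divided, 522 bp long against 1407 bp for the S. cerevisiae model, so that the level of its ratio is not comparable with that of other pairs. The paper reports a premature stop codon that interrupts the reading frame of SeMALR1. SeMAL33 had 13.7 and 12.3 FPKM on glucose and 28.3 and 36.8 FPKM on maltose, and ScMAL33 had 9.11 and 8.68 FPKM on glucose and 54.9 and 50.9 FPKM on maltose. The log2 ratio was 0.54 and 0.46 on glucose and −0.93 and −0.46 on maltose, a change of −1.20 ± 0.17 (SE, limma, Benjamini-Hochberg adjusted p = 0.00522). The first part of the divided model, 708 bp long, pairs with MAL13, a further activator gene. This pair was not tested because ScMAL13 averaged below 10 FPKM over the 6 hybrid libraries. SeMAL13 had 10.8 and 11.97 FPKM on glucose and 28.9 and 36.3 FPKM on maltose, and ScMAL13 had 1.94 and 1.73 FPKM on glucose and 19.2 and 24.6 FPKM on maltose. All maltose values of MAL13 lay above all glucose values in both copies, and the log2 ratio was 2.01 and 2.25 on glucose and 0.57 and 0.55 on maltose. With the filter applied to the glucose and maltose cultures only, an alternative chosen after seeing the data, MAL13 was tested and changed by −1.57 (limma, Benjamini-Hochberg adjusted p = 0.00116). The remaining pair of the list, the glucoamylase gene SGA1, had between 0.851 and 2.20 FPKM in the 4 cultures and was not tested.

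These pairs have their S. eubayanus models near each other on chromosome 5 of the CDFM21L.1 assembly, IMA5 from 561597 to 563342 and MAL33 from 565495 to 566016, while their S. cerevisiae partners lie on chromosomes 10 and 2 of the CBC-1 assembly. ADH4, an alcohol dehydrogenase gene, lies on the same stretch from 552830 to 553978 and has its S. cerevisiae partner on chromosome 7. SeADH4 had 186 and 188 FPKM on glucose and 65.3 and 52.7 FPKM on maltose, and ScADH4 had 30.3 and 32.7 FPKM on glucose and 25.3 and 20.7 FPKM on maltose. SeADH4 fell (−1.66 on the log2 scale, limma, Benjamini-Hochberg adjusted p = 0.000808), the difference in ScADH4 was −0.44 (adjusted p = 0.0972), and the ratio moved toward S. cerevisiae by −1.21 ± 0.12 (SE, limma, Benjamini-Hochberg adjusted p = 0.000954). In this pair the S. eubayanus copy fell, whereas in IMA5 and MAL33 it rose less than its partner. With each culture left out in turn, ADH4 was called in every fit, but the call was lost for IMA5 without the first glucose or the second maltose culture and for MAL33 without the first glucose culture (limma, largest Benjamini-Hochberg adjusted p = 0.0856).

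Among hexose transporter genes the shift went in opposite directions for HXT3 and HXT4. HXT3 encodes a low-affinity and HXT4 a higher-affinity glucose transporter. SeHXT3 lies on chromosome 2 from 937150 to 938853 in the CDFM21L.1 assembly and ScHXT3 on chromosome 4 from 1125023 to 1126726 in the CBC-1 assembly. SeHXT3 had 733 and 1051 FPKM on glucose and 1.22 and 0.886 FPKM on maltose, and ScHXT3 had 713 and 969.7 FPKM on glucose and 10.1 and 10.5 FPKM on maltose. All maltose values were far below all glucose values in both copies, and the copies, at similar levels on glucose, were about 10-fold apart on maltose with ScHXT3 higher. The log2 ratio of HXT3 was 0.041 and 0.12 on glucose and −2.32 and −2.61 on maltose, a change of −2.54 ± 0.16 (SE, limma, Benjamini-Hochberg adjusted p = 9.59e-05). SeHXT4 had 66.3 and 175 FPKM on glucose and 2.499 and 1.84 FPKM on maltose, and ScHXT4 had 328 and 551 FPKM on glucose and 1.096 and 1.93 FPKM on maltose. Here ScHXT4 was the higher copy in both glucose cultures, and both copies fell to between 1.096 and 2.499 FPKM on maltose. The log2 ratio of HXT4 was −2.29 and −1.65 on glucose and 0.74 and −0.041 on maltose, a change of 2.32 ± 0.29 (SE, limma, Benjamini-Hochberg adjusted p = 0.00279). The test was no longer passed by HXT4 in limma voom on the recovered reads. The models of HXT4 differ in length, 1731 bp in S. eubayanus and 1299 bp in S. cerevisiae, and transporters of this family share sequence, so that reads may be divided among them. The remaining testable hexose transporter pair, HXT2, differed in ratio by 0.012 (limma, Benjamini-Hochberg adjusted p = 0.992), although both copies fell (log2 changes of −3.45 and −3.46). Under omission of each culture in turn, HXT3 and HXT4 were called in every fit (limma, largest Benjamini-Hochberg adjusted p = 0.0175).

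Of 24 tested pairs of glucose sensing and repression, 3 moved toward S. eubayanus and 1 toward S. cerevisiae, with a median change of 0.045 against 0.00654 over all pairs and with 16.7% called against 5.2%. Of this list, 1 and 1 were called without the first and second glucose culture and 5 and 2 without the first and second maltose culture. HXK2, the gene of hexokinase 2, which phosphorylates glucose and takes part in glucose repression, moved toward S. eubayanus. SeHXK2 had 279.7 and 348 FPKM on glucose and 371 and 364 FPKM on maltose, and ScHXK2 had 326 and 405 FPKM on glucose and 238 and 209.9 FPKM on maltose. ScHXK2 was the higher copy in both glucose cultures and the lower one in both maltose cultures, since it fell by 0.70 on the log2 scale (limma, Benjamini-Hochberg adjusted p = 0.0274) while the difference in SeHXK2 was 0.24 (adjusted p = 0.271). The ratio of HXK2 changed by 0.94 ± 0.095 (SE, limma, Benjamini-Hochberg adjusted p = 0.00122). RAS2, a GTPase gene of cyclic AMP signalling, changed by 0.80 ± 0.18 (SE, limma, Benjamini-Hochberg adjusted p = 0.0428), SIP4, an activator gene of gluconeogenesis, by 1.07 (limma, Benjamini-Hochberg adjusted p = 0.0217), and REG2, a regulatory subunit gene of the Glc7 phosphatase, by −1.26 (limma, Benjamini-Hochberg adjusted p = 0.0195). SIP4 had few transcripts on both sugars, and REG2 had few on glucose. SeSIP4 had 0.667 and 1.096 FPKM on glucose and 2.996 and 4.60 FPKM on maltose, and ScSIP4 had 0.936 and 1.23 FPKM on glucose and 1.496 and 1.51 FPKM on maltose. SeREG2 had 1.14 and 1.44 FPKM on glucose and 6.44 and 23.2 FPKM on maltose, and ScREG2 had 1.19 and 2.21 FPKM on glucose and 23.8 and 55.3 FPKM on maltose. SIP4 and REG2 reached the filter only through the maltotriose cultures. With the filter applied to the glucose and maltose cultures only, 2 pairs of the list were called. Both REG2 copies rose, ScREG2 more, whereas of the SIP4 copies only SeSIP4 passed the test. When single cultures were left out, HXK2 was called in every fit, but the call was lost for RAS2 and SIP4 without either glucose or the second maltose culture and for REG2 without either glucose or the first maltose culture (limma, largest Benjamini-Hochberg adjusted p = 0.231). The threshold was missed by SIP4 and REG2 in limma voom on the recovered reads and by RAS2 with a pseudocount of 0.1 FPKM.

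The other 20 pairs of this list did not pass the test, with differences from −0.79 for NRG1 to 0.66 for HAP4. The repressor gene NRG1 (limma, Benjamini-Hochberg adjusted p = 0.0665) and HAP4, a subunit gene of the activator of respiratory genes (limma, Benjamini-Hochberg adjusted p = 0.0692), lay closest to the threshold. MIG1 and MIG2, which encode glucose repressors, had ratio differences of −0.35 and 0.44, and all 4 copies fell on maltose. The difference was 0.46 for SIP2, a subunit gene of the Snf1 complex, 0.48 for RAS1, 0.39 for GPA2 and 0.29 for MTH1. The ratios of the kinase gene SNF1 (0.20) and its subunits SNF4 (0.055) and GAL83 (−0.0016), of the sensor gene SNF3 (0.035) and of the corepressor genes CYC8 (−0.14) and TUP1 (0.0066) differed by less than 0.25 in either direction. The same held for GPR1 (−0.20), YCK1 (−0.15), YCK2 (−0.12), GLC7 (−0.096), REG1 (0.067) and RDS2 (−0.055).

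**Figure D2:**
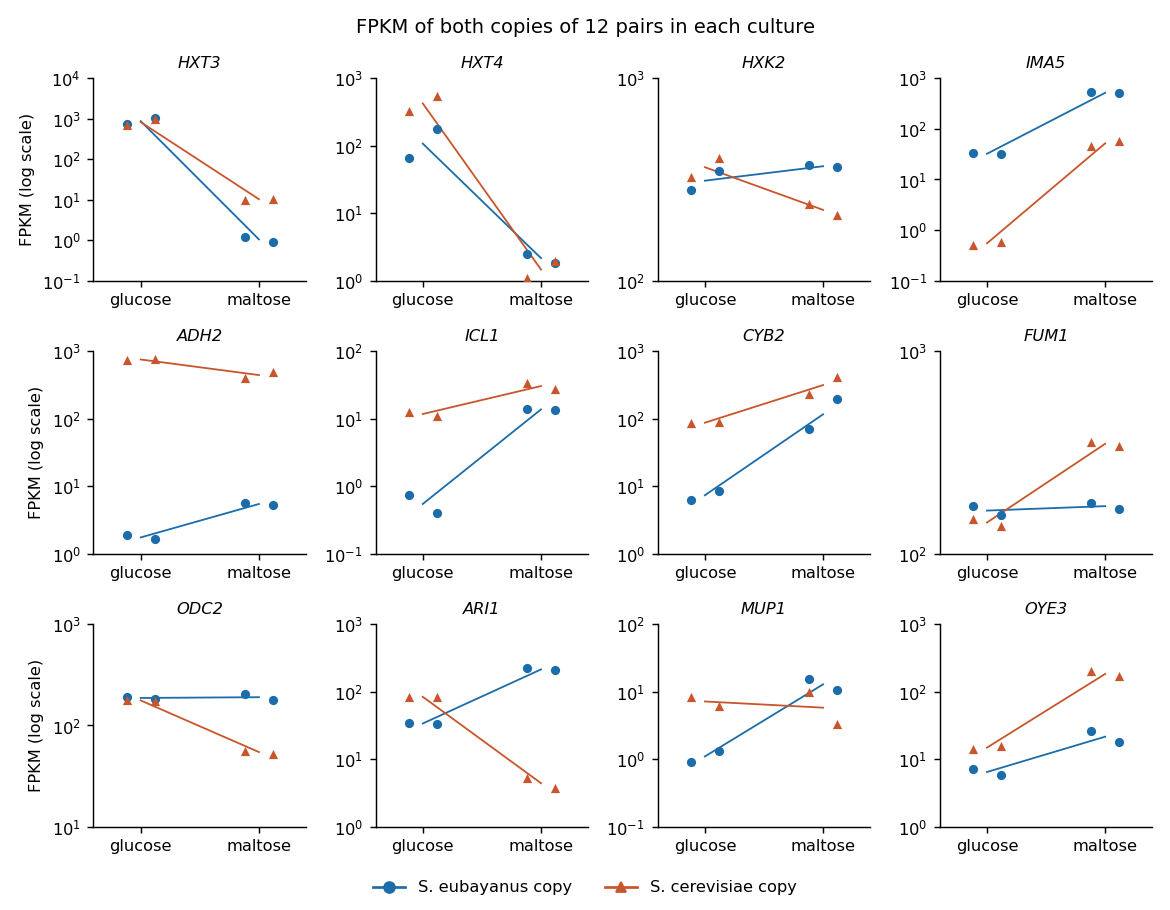
FPKM on a logarithmic axis of the S. eubayanus (circles) and S. cerevisiae (triangles) copy of 12 pairs in each glucose and maltose culture of the hybrid, with lines between geometric means. For FUM1 and ODC2 the S. eubayanus copy overlapped between the sugars and the S. cerevisiae copy moved, for ARI1 the copies moved in opposite directions, and for HXT3 and HXT4 both fell by unequal amounts.

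In glycolysis, 7 of 19 tested pairs changed their ratio, 5 toward S. eubayanus and 2 toward S. cerevisiae, and in the steps from pyruvate to ethanol and acetate 7 of 22, 5 and 2 of them in these directions. These are 36.8% and 31.8% of the pairs, against 5.2% of all pairs tested. With the filter applied to the glucose and maltose cultures only, 7 and 4 pairs of these lists were called, and 155 of 3403 pairs in all. Called pairs of glycolysis numbered 1 and 2 with the first or second glucose culture left out and 5 and 2 with the first or second maltose culture left out. Omitting the first or second glucose culture left 4 and 4 called pairs of the steps from pyruvate, and omitting the first or second maltose culture 7 and 5. Medians of both lists were near 0 (−0.0081 and 0.049). The largest change in either list was that of ADH2, the alcohol dehydrogenase that oxidises ethanol and is repressed by glucose. SeADH2 had 1.85 and 1.62 FPKM on glucose and 5.65 and 5.23 FPKM on maltose, and ScADH2 had 759 and 760.4 FPKM on glucose and 404 and 492 FPKM on maltose. SeADH2 rose on maltose (1.24, limma, Benjamini-Hochberg adjusted p = 0.00203) but stayed far below ScADH2, which fell (−0.77, adjusted p = 0.00894). The log2 ratio was −8.06 and −8.18 on glucose and −5.93 and −6.30 on maltose, a change of 2.002 ± 0.14 (SE, limma, Benjamini-Hochberg adjusted p = 0.000179). The filter was reached by ADH2 only with the maltotriose cultures counted. ADH2 resembles ADH1, the main fermentative alcohol dehydrogenase gene, in sequence, and ScADH1 had 3418 and 3529 FPKM on glucose and 1834 and 2243 FPKM on maltose and SeADH1 3483 and 3443 FPKM on glucose and 1508 and 1695 FPKM on maltose. Whether reads of ADH1 were counted on ADH2 was not tested. The ADH1 ratio, looked up after these values were seen, differed by −0.34 (limma, Benjamini-Hochberg adjusted p = 0.114). In fits without 1 of the cultures, ADH2 was called in every fit (limma, largest Benjamini-Hochberg adjusted p = 0.0018).

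ACS1 and ALD4, which act in the use of acetate and acetaldehyde, moved toward S. eubayanus. ACS1 encodes an acetyl coenzyme A synthetase. SeACS1 had 4.07 and 3.54 FPKM on glucose and 19.9 and 35.5 FPKM on maltose, and ScACS1 had 4.92 and 6.2001 FPKM on glucose and 10.2 and 11.46 FPKM on maltose. Its ratio changed by 1.67 ± 0.24 (SE, limma, Benjamini-Hochberg adjusted p = 0.0053), with SeACS1 the higher copy on maltose only. Over the glucose and maltose cultures alone, ACS1 lay below the filter. ALD4, the gene of a mitochondrial aldehyde dehydrogenase, had 30.4 and 22.7 FPKM on glucose and 292 and 389 FPKM on maltose for the S. eubayanus copy and 63.9 and 51.3 FPKM on glucose and 325 and 316 FPKM on maltose for the S. cerevisiae copy. Both copies of ALD4 rose, the S. eubayanus copy more, and the ratio changed by 1.16 ± 0.13 (SE, limma, Benjamini-Hochberg adjusted p = 0.00179). BDH1, a butanediol dehydrogenase gene named after its values were seen, followed the 12 largest rises with 1.51 (limma, Benjamini-Hochberg adjusted p = 0.000121). The called changes of glycolysis were below 1 in size. TDH1, an isoenzyme of glyceraldehyde-3-phosphate dehydrogenase, changed by 0.65 (limma, Benjamini-Hochberg adjusted p = 0.0117), and FBP26 and PFK27, which remove and make the regulator fructose 2,6-bisphosphate, by 0.62 (limma, Benjamini-Hochberg adjusted p = 0.022) and 0.64 (limma, Benjamini-Hochberg adjusted p = 0.0368). Toward S. cerevisiae, the phosphoglycerate mutase gene GPM1 changed by −0.29 (limma, Benjamini-Hochberg adjusted p = 0.00443), named here, like ADH1, after its value was seen. On leaving out single cultures, ALD4, ACS1 and BDH1 were called in every fit, but the call was lost for TDH1 and FBP26 without either glucose or the second maltose culture and for PFK27 without any 1 of the 4 (limma, largest Benjamini-Hochberg adjusted p = 0.275).

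The list of gluconeogenesis, the glyoxylate cycle and carboxylate uptake had 8 called pairs of 21 tested, of which 7 moved toward S. eubayanus and 1, the pyruvate carboxylase pair PYC1 (−0.58), toward S. cerevisiae. The median change of the list was 0.32, against 0.00654 over all pairs, and 38.1% were called against 5.2%. With the filter applied to the glucose and maltose cultures only, 5 pairs of the list were called, and 155 of 3403 pairs in all. Without the first maltose library 5 of its pairs were called, and without the second 3, and without the first or second glucose culture 5 and 3. CYB2 encodes the L-lactate cytochrome c oxidoreductase. SeCYB2 had 6.31 and 8.50 FPKM on glucose and 70.2 and 194 FPKM on maltose, and ScCYB2 had 86.5 and 88.6 FPKM on glucose and 237 and 422 FPKM on maltose. Its log2 ratio was −3.58 and −3.24 on glucose and −1.74 and −1.12 on maltose, a change of 1.98 ± 0.21 (SE, limma, Benjamini-Hochberg adjusted p = 0.00134). ICL1 encodes isocitrate lyase of the glyoxylate cycle. SeICL1 had 0.730 and 0.406 FPKM on glucose and 13.9 and 13.7 FPKM on maltose, and ScICL1 had 12.5 and 11.1 FPKM on glucose and 34.2 and 27.4 FPKM on maltose. SeICL1 was close to the detection limit on glucose, with 22 and 12 reads, and the ratio changed by 1.94 ± 0.16 (SE, limma, Benjamini-Hochberg adjusted p = 0.000445). In CYB2 and ICL1 both copies rose, the S. cerevisiae copy stayed higher in every culture, and the gap became smaller. ATO2 encodes a plasma membrane protein of ammonium or acetate transport. SeATO2 had 6.92 and 8.56 FPKM on glucose and 193 and 134 FPKM on maltose, and ScATO2 had 2.74 and 3.53 FPKM on glucose and 27.2 and 28.9 FPKM on maltose. SeATO2 was the higher copy in every culture and rose more, so that the ratio changed by 1.3997 ± 0.18 (SE, limma, Benjamini-Hochberg adjusted p = 0.00343). FBP1, the gene of fructose-1,6-bisphosphatase, rose in both copies from below 2 FPKM on glucose to 22.6 and 21.2 FPKM for SeFBP1 and 14.3 and 14.5 FPKM for ScFBP1, a ratio change of 1.27 ± 0.30 (SE, limma, Benjamini-Hochberg adjusted p = 0.0473). ICL1, FBP1 and CAT2 reached the filter only through the maltotriose cultures. Smaller shifts toward S. eubayanus were those of CAT2, CIT2 and IDP2, from 0.58 to 0.84, which like PYC1 are named after their values were seen. With each culture left out in turn, ICL1, CYB2 and ATO2 were called in every fit, but the call was lost for FBP1 without the second glucose or either maltose culture (limma, largest Benjamini-Hochberg adjusted p = 0.299). The test was no longer passed by ATO2 and FBP1 in limma voom on the recovered reads and by FBP1 with a filter at 1 FPKM.

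In the tricarboxylic acid cycle, 5 of 17 pairs were called, 2 toward S. eubayanus and 3 toward S. cerevisiae, with a median of −0.13, and 29.4% were called against 5.2% of all pairs. For this list the count was 4 and 4 without the first or second glucose culture and 5 and 4 without the first or second maltose culture. FUM1, the fumarase gene, had the largest change. SeFUM1 had 172 and 155 FPKM on glucose and 178 and 165 FPKM on maltose, and ScFUM1 had 148 and 137 FPKM on glucose and 356 and 342 FPKM on maltose. SeFUM1 overlapped between the sugars and ScFUM1 rose in both maltose cultures above every other value, so that the higher copy was exchanged. The log2 ratio was 0.21 and 0.18 on glucose and −0.995 and −1.05 on maltose, a change of −1.21 ± 0.084 (SE, limma, Benjamini-Hochberg adjusted p = 0.000162). LSC1, a subunit gene of succinyl coenzyme A ligase, changed by −0.55 (limma, Benjamini-Hochberg adjusted p = 0.00394) and SDH4, a succinate dehydrogenase subunit gene, by −0.42 (limma, Benjamini-Hochberg adjusted p = 0.012). Toward S. eubayanus moved the mitochondrial citrate synthase gene CIT1 (0.64, limma, Benjamini-Hochberg adjusted p = 0.00306) and the mitochondrial isocitrate dehydrogenase gene IDP1 (0.72, limma, Benjamini-Hochberg adjusted p = 0.00394). SeCIT1 rose from 114 ± 11.6 to 418 ± 54.2 FPKM and ScCIT1 from 114 ± 1.79 to 268 ± 32.1 FPKM (SD, n = 2). Under omission of each culture in turn, FUM1, LSC1, CIT1 and IDP1 were called in every fit, but the call was lost for SDH4 without either glucose or the second maltose culture.

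Among 45 pairs of mitochondrial import and carriers, 4 were called (8.89%, against 5.2% of all pairs), and the pairs of the 2-oxodicarboxylate carriers ODC1 and ODC2, which exchange oxoglutarate and oxoadipate, both moved toward S. eubayanus in different ways. SeODC2 had 193 and 181 FPKM on glucose and 203 and 179 FPKM on maltose, and ScODC2 had 179 and 175 FPKM on glucose and 56.4 and 52.7 FPKM on maltose. SeODC2 overlapped between the sugars, whereas ScODC2 fell (−1.68 on the log2 scale, limma, Benjamini-Hochberg adjusted p = 0.000301), and the ratio changed by 1.70 ± 0.099 (SE, limma, Benjamini-Hochberg adjusted p = 8.83e-05). SeODC1 had 6.74 and 5.59 FPKM on glucose and 56.2 and 86.9 FPKM on maltose, and ScODC1 had 83.9 and 81.8 FPKM on glucose and 328 and 308 FPKM on maltose. Both ODC1 copies rose, the S. eubayanus copy from a much lower level, and the ratio changed by 1.38 ± 0.21 (SE, limma, Benjamini-Hochberg adjusted p = 0.00717). PIC2, a mitochondrial copper and phosphate carrier gene, changed by 0.72 (limma, Benjamini-Hochberg adjusted p = 0.00443) and DIC1, the dicarboxylate carrier gene, by −0.99 (limma, Benjamini-Hochberg adjusted p = 0.0103). In the respiratory chain and ATP synthase 3 of 37 pairs were called (8.11%), among them the external NADH dehydrogenase gene NDE1 (0.62, limma, Benjamini-Hochberg adjusted p = 0.0101) and ATP17 (−0.25, limma, Benjamini-Hochberg adjusted p = 0.0347). Of the carrier pairs, 2 and 3 were called without the first and second glucose culture and 4 and 3 without the first and second maltose culture. Called pairs of the respiratory chain list numbered 0 and 1 with the first or second glucose culture left out and 3 and 0 with the first or second maltose culture left out. When single cultures were left out, ODC2 was called in every fit. The call was lost for ODC1 without the second glucose culture and for PIC2 without the first glucose culture. It was also lost for DIC1 without the first glucose or the second maltose culture, for NDE1 without either glucose or the second maltose culture and for ATP17 without any 1 of the 4 (limma, largest Benjamini-Hochberg adjusted p = 0.288). The threshold was missed by ATP17 in limma voom on the recovered reads.

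The largest ratio change of all pairs was that of ARI1, which encodes an NADPH-dependent aldehyde reductase and stood in the list of oxidative stress defence, which also held the superoxide dismutase pair SOD1 given above. SeARI1 lies on chromosome 7 from 263662 to 264708 in the CDFM21L.1 assembly and ScARI1 on chromosome 7 from 214116 to 215158 in the CBC-1 assembly. SeARI1 had 34.3 and 33.4 FPKM on glucose and 223 and 207 FPKM on maltose, and ScARI1 had 84.8 and 83.7 FPKM on glucose and 5.25 and 3.68 FPKM on maltose. The glucose cultures differed little in either copy, and on maltose SeARI1 rose in both cultures while ScARI1 fell in both. The log2 ratio was −1.28 and −1.30 on glucose and 5.16 and 5.47 on maltose, a change of 6.61 ± 0.17 (SE, limma, Benjamini-Hochberg adjusted p = 1.27e-07), with 100 and 89 reads behind the low values of ScARI1. ARI1 was the only pair in which the ratio changed by more than 4 in size. Of 29 pairs in that list, 4 moved toward S. eubayanus and 2 toward S. cerevisiae, together 20.7% against 5.2% of all pairs. Omitting the first or second glucose culture left 3 and 4 called pairs of the list, and omitting the first or second maltose culture 6 and 4. OYE3, an NADPH oxidoreductase gene, was the largest of the latter. SeOYE3 had 7.25 and 5.73 FPKM on glucose and 25.8 and 18.0 FPKM on maltose, and ScOYE3 had 14.2 and 15.5 FPKM on glucose and 200.5 and 169 FPKM on maltose. Both OYE3 copies rose, ScOYE3 more, and the ratio changed by −1.95 ± 0.24 (SE, limma, Benjamini-Hochberg adjusted p = 0.0026). The flavohemoglobin gene YHB1 changed by 0.84 (limma, Benjamini-Hochberg adjusted p = 0.00903), and the peroxisomal catalase gene CTA1, at 2.43 to 5.81 FPKM in all 4 cultures, by −0.85 (limma, Benjamini-Hochberg adjusted p = 0.0327). In the pentose phosphate pathway the minor isoenzymes TKL2 and GND2 were the 2 called pairs of 11 (18.2%, against 5.2% of all pairs) and moved in opposite directions. TKL2, a transketolase gene, rose in SeTKL2 from 2.68 and 1.63 to 18.8 and 33.6 FPKM, and its ratio changed by 1.77 ± 0.20 (SE, limma, Benjamini-Hochberg adjusted p = 0.00167). GND2, a 6-phosphogluconate dehydrogenase gene, rose in ScGND2 from 5.96 and 5.88 to 16.1 and 21.7 FPKM, and its ratio changed by −1.18 ± 0.12 (SE, limma, Benjamini-Hochberg adjusted p = 0.00134). The filter was reached by CTA1 and TKL2 only with the maltotriose cultures counted. With the filter applied to the glucose and maltose cultures only, 4 pairs of the oxidative stress list and 1 of the pentose phosphate list were called. In fits without 1 of the cultures, ARI1, OYE3, TKL2 and GND2 were called in every fit, but the call was lost for YHB1 without the first glucose culture and for CTA1 without either glucose or the second maltose culture (limma, largest Benjamini-Hochberg adjusted p = 0.246). The call was not reached by CTA1 and TKL2 in limma voom on the recovered reads.

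For RGI1, a small protein gene induced during respiratory growth, the maltose cultures differed strongly in level but little in ratio. SeRGI1 had 6.73 and 23.7 FPKM on glucose and 178 and 1452 FPKM on maltose, and ScRGI1 had 35.5 and 161 FPKM on glucose and 282 and 2319.7 FPKM on maltose. The second maltose culture had about 8-fold more of both copies than the first, yet the log2 ratio was −2.24 and −2.71 on glucose and −0.66 and −0.68 on maltose, a change of 1.81 ± 0.14 (SE, limma, Benjamini-Hochberg adjusted p = 0.000384). SPG1, a gene of stationary-phase survival, differed between the maltose cultures in both level and ratio. SeSPG1 had 0.193 and 0.785 FPKM on glucose and 6.66 and 88.5 FPKM on maltose, and ScSPG1 had 5.97 and 9.42 FPKM on glucose and 7.42 and 37.8 FPKM on maltose. Its ratio was −2.55 and −2.55 on glucose and −0.14 and 1.21 on maltose, a change of 3.08 ± 0.33 (SE, limma, Benjamini-Hochberg adjusted p = 0.00151), and 1 to 591 reads per culture lie behind SeSPG1. GSY2, which encodes the main glycogen synthase, reached 40.6 and 213 FPKM for SeGSY2 and 35.7 and 135 FPKM for ScGSY2 on maltose, where SeGSY2 passed its own test and ScGSY2 did not, with a ratio change of 0.98 ± 0.17 (SE, limma, Benjamini-Hochberg adjusted p = 0.0133). The pairs of the glycogen primer gene GLG2 (0.81, limma, Benjamini-Hochberg adjusted p = 0.0422) and the acid trehalase gene ATH1 (0.68, limma, Benjamini-Hochberg adjusted p = 0.0451) moved the same way, so that all 3 called pairs of 16 for trehalose and glycogen shifted toward S. eubayanus, with a list median of 0.037 and 18.8% called against 5.2% of all pairs. For this list the count was 0 and 1 without the first or second glucose culture and 2 and 0 without the first or second maltose culture. Over the glucose and maltose cultures alone, ATH1 lay below the filter. With the filter applied in that way, 2 pairs of the trehalose and glycogen list were called. On leaving out single cultures, RGI1 and SPG1 were called in every fit, but the call was lost for GSY2 without the first glucose or the second maltose culture, for GLG2 without either glucose or the second maltose culture and for ATH1 without any 1 of the 4 (limma, largest Benjamini-Hochberg adjusted p = 0.299). The test was no longer passed by ATH1 in limma voom on the recovered reads and by ATH1 with a pseudocount of 0.1 FPKM.

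In the opposite direction, SIP18, the gene of a hydrophilin, moved toward S. cerevisiae. SeSIP18 had 3.26 and 5.76 FPKM on glucose and 10.95 and 13.9 FPKM on maltose, and ScSIP18 had 6.01 and 2.59 FPKM on glucose and 52.5 and 70.5 FPKM on maltose. The glucose ratios of SIP18 were −0.72 and 0.91 and thus on both sides of 0, and the change was −2.31 ± 0.40 (SE, limma, Benjamini-Hochberg adjusted p = 0.0123). RGI2, the relative of RGI1, had 0 and 0.457 FPKM on glucose and 0.221 and 2.09 FPKM on maltose for SeRGI2 and 0.224 and 0.457 FPKM on glucose and 3.10 and 5.58 FPKM on maltose for ScRGI2. Its ratio change of −1.27 ± 0.21 (SE, limma, Benjamini-Hochberg adjusted p = 0.0103) rests on 0 to 24 reads of SeRGI2. TFS1, an inhibitor gene of carboxypeptidase Y, changed by 0.67 (limma, Benjamini-Hochberg adjusted p = 0.00858). Of 20 heat shock chaperone pairs 2 were called (10.0000000%, against 5.2% of all pairs), the mitochondrial HSP78 (0.60, limma, Benjamini-Hochberg adjusted p = 0.0304) and HSP31 (−0.62, limma, Benjamini-Hochberg adjusted p = 0.0413). Of the chaperones, 0 and 0 were called without the first and second glucose culture and 0 and 0 without the first and second maltose culture. SIP18 and RGI2 reached the filter only through the maltotriose cultures. With each culture left out in turn, the call was lost for SIP18 without the second maltose culture and for RGI2 without the second glucose culture. It was also lost for TFS1 without either glucose culture and for HSP78 and HSP31 without any 1 of the 4 (limma, largest Benjamini-Hochberg adjusted p = 0.271). The threshold was missed by RGI2 and TFS1 in limma voom on the recovered reads and by RGI2 and HSP31 with a pseudocount of 0.1 FPKM.

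Of 11 pairs for glycerol and osmotic stress, 4 were called (36.4%, against 5.2% of all pairs), 2 in each direction, with a list median of 0.25. Called pairs of this list numbered 3 and 4 with the first or second glucose culture left out and 5 and 3 with the first or second maltose culture left out. STL1, the glycerol proton symporter gene, and GUT1, the glycerol kinase gene, moved toward S. cerevisiae. SeSTL1 had 0.757 and 0.905 FPKM on glucose and 99.9 and 57.7 FPKM on maltose, and ScSTL1 had 0.811 and 0.562 FPKM on glucose and 221 and 140.1 FPKM on maltose. Both STL1 copies rose from below 1 FPKM, and the ratio changed by −1.32 ± 0.18 (SE, limma, Benjamini-Hochberg adjusted p = 0.00463). SeGUT1 had 81.5 and 83.8 FPKM on glucose and 98.4 and 114 FPKM on maltose, and ScGUT1 had 52.2 and 52.0 FPKM on glucose and 134 and 142 FPKM on maltose. For GUT1 the S. cerevisiae copy was the lower one on glucose and the higher one on maltose, and the ratio changed by −1.04 ± 0.10 (SE, limma, Benjamini-Hochberg adjusted p = 0.00121); the models of its copies are 4183 and 3112 bp long. GUT2, the mitochondrial glycerol-3-phosphate dehydrogenase gene, and GCY1, a glycerol dehydrogenase gene, moved toward S. eubayanus. SeGUT2 had 46.2 and 50.0 FPKM on glucose and 313 and 373 FPKM on maltose, and ScGUT2 had 68.5 and 66.3 FPKM on glucose and 239 and 262 FPKM on maltose. The ratio of GUT2 changed by 0.93 ± 0.15 (SE, limma, Benjamini-Hochberg adjusted p = 0.00906) and that of GCY1 by 1.05 (limma, Benjamini-Hochberg adjusted p = 0.00192). Under omission of each culture in turn, STL1, GUT1 and GCY1 were called in every fit, but the call was lost for GUT2 without the first glucose or the second maltose culture (limma, largest Benjamini-Hochberg adjusted p = 0.0743). The call was not reached by STL1 in limma voom on the recovered reads.

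All 4 called pairs among 12 for amino acid and ammonium uptake moved toward S. eubayanus, a direction called for 3.11% of all pairs, while the list median was −0.033. Omitting the first or second glucose culture left 2 and 2 called pairs of the uptake list, and omitting the first or second maltose culture 4 and 2. In GAP1, the general amino acid permease gene, both copies fell on maltose, ScGAP1 more. SeGAP1 had 487 and 428 FPKM on glucose and 296 and 206 FPKM on maltose, and ScGAP1 had 495 and 485 FPKM on glucose and 202 and 142 FPKM on maltose. The ratio of GAP1 changed by 0.64 ± 0.078 (SE, limma, Benjamini-Hochberg adjusted p = 0.00225). DIP5, the permease gene for acidic amino acids, had 46.4 and 41.2 FPKM on glucose and 47.8 and 27.0 FPKM on maltose for the S. eubayanus copy and 124 and 125 FPKM on glucose and 61.4 and 29.6 FPKM on maltose for the S. cerevisiae copy. ScDIP5 fell (−1.52, limma, Benjamini-Hochberg adjusted p = 0.0228), and the ratio changed by 1.25 ± 0.14 (SE, limma, Benjamini-Hochberg adjusted p = 0.00179). In AGP1, a permease gene of broad specificity, both copies rose more than 8-fold, and the ratio changed by 0.66 (limma, Benjamini-Hochberg adjusted p = 0.022), and in the allantoate permease gene DAL5 both fell and it changed by 0.56 (limma, Benjamini-Hochberg adjusted p = 0.0397). MUP1, the methionine permease gene, had the third largest rise of the ratio. SeMUP1 had 0.897 and 1.34 FPKM on glucose and 15.5 and 10.7 FPKM on maltose, and ScMUP1 had 8.43 and 6.13 FPKM on glucose and 10.0004 and 3.38 FPKM on maltose. SeMUP1 rose from 28 and 41 reads on glucose, ScMUP1 overlapped between the sugars, and the ratio changed by 2.96 ± 0.31 (SE, limma, Benjamini-Hochberg adjusted p = 0.00132). The filter was reached by MUP1 only with the maltotriose cultures counted. When single cultures were left out, GAP1, DIP5 and MUP1 were called in every fit, but the call was lost for AGP1 without either glucose or the second maltose culture and for DAL5 without any 1 of the 4 (limma, largest Benjamini-Hochberg adjusted p = 0.315). The test was no longer passed by AGP1 in limma voom on the recovered reads and by AGP1 and DAL5 with a pseudocount of 0.1 FPKM.

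Within sulfur and nitrogen metabolism the remaining shifts were mostly below 2-fold. SUL1, a sulfate permease gene, changed by −1.08 (limma, Benjamini-Hochberg adjusted p = 0.00443), with the S. cerevisiae copy at 133 to 206 FPKM and the S. eubayanus copy at 11.7 to 20.6 FPKM. The isoenzyme genes of 3-phosphoglycerate dehydrogenase went opposite ways, SER3 by −0.96 (limma, Benjamini-Hochberg adjusted p = 0.0274) and SER33 by 0.40 (limma, Benjamini-Hochberg adjusted p = 0.0389). PUT1, the proline oxidase gene, fell in both copies. SePUT1 had 72.3 and 61.6 FPKM on glucose and 5.97 and 3.72 FPKM on maltose, and ScPUT1 had 17.9 and 17.7 FPKM on glucose and 2.53 and 3.17 FPKM on maltose. Its ratio was 1.96 and 1.74 on glucose and 0.98 and 0.18 on maltose, a change of −1.27 ± 0.24 (SE, limma, Benjamini-Hochberg adjusted p = 0.0183). The NADP-dependent glutamate dehydrogenase genes GDH1 and GDH3 also diverged, with 0.53 (limma, Benjamini-Hochberg adjusted p = 0.00138) for GDH1 and −0.69 (limma, Benjamini-Hochberg adjusted p = 0.0123) for GDH3, whose copies both rose. Of 62 amino acid biosynthesis pairs 7 were called (11.3%, against 5.2% of all pairs), including ASN1 for asparagine synthetase (−0.72, limma, Benjamini-Hochberg adjusted p = 0.00179) and LYS20 for homocitrate synthase (0.62, limma, Benjamini-Hochberg adjusted p = 0.00151). For this list the count was 3 and 3 without the first or second glucose culture and 6 and 4 without the first or second maltose culture. In fits without 1 of the cultures, GDH1, ASN1 and LYS20 were called in every fit, but the call was lost for SUL1 without the first glucose culture, for SER3, PUT1 and GDH3 without either glucose or the second maltose culture and for SER33 without any 1 of the 4 (limma, largest Benjamini-Hochberg adjusted p = 0.307). The threshold was missed by PUT1 with a pseudocount of 0.1 FPKM.

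Of 32 cell wall pairs, 3 moved toward S. eubayanus and 3 toward S. cerevisiae, together 18.8% against 5.2% of all pairs. Of the cell wall pairs, 1 and 1 were called without the first and second glucose culture and 5 and 4 without the first and second maltose culture. TIP1, a mannoprotein gene, had 9.95 and 8.70 FPKM on glucose and 18.2 and 19.7 FPKM on maltose for SeTIP1 and 8.33 and 6.34 FPKM on glucose and 34.95 and 39.3 FPKM on maltose for ScTIP1. Both copies rose, the ratio was 0.23 and 0.40 on glucose and −0.91 and −0.96 on maltose, and the change was −1.25 ± 0.11 (SE, limma, Benjamini-Hochberg adjusted p = 0.000692). UTR2, a cell wall transglycosylase gene, changed by 1.04 (limma, Benjamini-Hochberg adjusted p = 0.0101), and the mannoprotein gene CWP1 and the exoglucanase gene EXG1 by −0.67 (limma, Benjamini-Hochberg adjusted p = 0.0223) and −0.62 (limma, Benjamini-Hochberg adjusted p = 0.00779). Of 18 pairs for plasma membrane transport, the polyamine exporter genes TPO2 and TPO3 shifted in opposite directions, TPO2 by −1.09 (limma, Benjamini-Hochberg adjusted p = 0.0133) and TPO3 by 0.70 (limma, Benjamini-Hochberg adjusted p = 0.012). The model of ScTPO2, at 7810 bp against 1845 bp for SeTPO2, is longer than the gene can be expected to be. FLR1, a multidrug transporter gene, changed by −0.79 (limma, Benjamini-Hochberg adjusted p = 0.0201) and PDR12, the weak acid exporter gene, by 0.68 (limma, Benjamini-Hochberg adjusted p = 0.0195). BIO2, the biotin synthase gene, moved toward S. cerevisiae. SeBIO2 had 42.9 and 33.7 FPKM on glucose and 31.4 and 19.1 FPKM on maltose, and ScBIO2 had 61.5 and 62.8 FPKM on glucose and 129.5 and 108 FPKM on maltose. ScBIO2 was the higher copy in every culture and rose, and the ratio changed by −1.54 ± 0.18 (SE, limma, Benjamini-Hochberg adjusted p = 0.00192). Called pairs of the plasma membrane list numbered 1 and 1 with the first or second glucose culture left out and 4 and 1 with the first or second maltose culture left out. On leaving out single cultures, TIP1 and BIO2 were called in every fit, but the call was lost for UTR2 and EXG1 without either glucose culture, for CWP1, TPO2, TPO3 and PDR12 without either glucose or the second maltose culture and for FLR1 without any 1 of the 4 (limma, largest Benjamini-Hochberg adjusted p = 0.199).

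Single called pairs in further lists were SNZ1 of vitamin B6 synthesis (0.49, limma, Benjamini-Hochberg adjusted p = 0.0127), the iron permease gene FTR1 (0.53, limma, Benjamini-Hochberg adjusted p = 0.0347), ERG4 of ergosterol synthesis (0.75, limma, Benjamini-Hochberg adjusted p = 0.00463) and the fatty acid activation gene FAA1 (−0.65, limma, Benjamini-Hochberg adjusted p = 0.00908). The acyl coenzyme A oxidase gene POX1 changed by −1.12 (limma, Benjamini-Hochberg adjusted p = 0.0217) at 0.197 to 6.95 FPKM in the 4 cultures. The vacuolar peptidase genes APE1 and CPS1 changed by −0.71 (limma, Benjamini-Hochberg adjusted p = 0.0201) and 0.46 (limma, Benjamini-Hochberg adjusted p = 0.0375), and HYP2, the gene of translation factor eIF5A, by −0.29 (limma, Benjamini-Hochberg adjusted p = 0.0347). Over the glucose and maltose cultures alone, POX1 lay below the filter. With each culture left out in turn, the call was lost for SNZ1, FTR1, FAA1, APE1 and HYP2 without either glucose or the second maltose culture and for ERG4 without the first glucose culture. It was also lost for POX1 without the first glucose or either maltose culture and for CPS1 without any 1 of the 4 (limma, largest Benjamini-Hochberg adjusted p = 0.272). The call was not reached by POX1 in limma voom on the recovered reads and by POX1 with a pseudocount of 0.1 FPKM.

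The largest shift toward S. cerevisiae was that of DPA10, systematic name YLR307C-A, whose models are 264 bp long in both subgenomes. SeDPA10 had 208 and 196 FPKM on glucose and 81.1 and 50.8 FPKM on maltose, and ScDPA10 had 0.630 and 1.07 FPKM on glucose and 2.70 and 2.78 FPKM on maltose. ScDPA10 had 3 to 17 reads per culture, SeDPA10 remained far higher in every culture, and the log2 ratio was 6.999 and 6.57 on glucose and 4.47 and 3.78 on maltose, a change of −2.66 ± 0.24 (SE, limma, Benjamini-Hochberg adjusted p = 0.000692). SeDPA10 fell and ScDPA10 rose, a combination found in 1 of the 74 pairs called in this direction. Other pairs among the largest changes were YOR062C and YHR112C, whose ratios changed by −1.73 (limma, Benjamini-Hochberg adjusted p = 0.0053) and −1.35 (limma, Benjamini-Hochberg adjusted p = 0.00192), and ECM13 with 1.95 (limma, Benjamini-Hochberg adjusted p = 0.00179). In YOR062C and YHR112C the S. eubayanus copy fell on maltose and the difference in the S. cerevisiae copy was −0.19 and 0.035, values that did not pass the test. DPA10, YOR062C and ECM13 reached the filter only through the maltotriose cultures. Under omission of each culture in turn, DPA10, YOR062C, YHR112C and ECM13 were called in every fit (limma, largest Benjamini-Hochberg adjusted p = 0.0299).

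**Figure D3:**
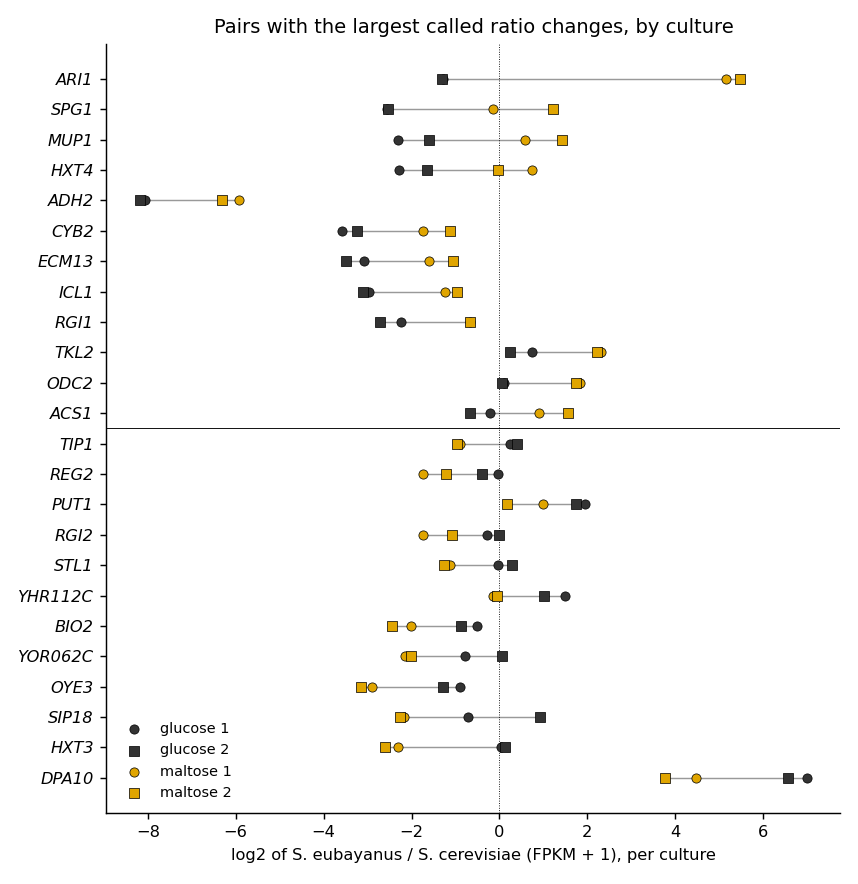
Log2 ratio of the S. eubayanus over the S. cerevisiae copy in each culture for the 12 largest called rises (above the line) and the 12 largest called falls (below it), with glucose cultures in black and maltose cultures in yellow. In each row the cultures of the sugars do not overlap, and ARI1 spans from −1.28 to 5.47.

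Large groups of growth genes showed no called ratio change. None of the 52 cytosolic ribosomal protein pairs, 73 mitochondrial ribosomal protein pairs, 144 ribosome biogenesis pairs and 35 proteasome pairs passed the test in limma, against 5.2% of all pairs, and their medians were −0.007, −0.0072, −0.0093 and −0.0052. Changes of the cytosolic ribosomal protein pairs lay between −0.29 and 0.094, and those of the proteasome pairs between −0.24 and 0.32. At an unadjusted p under 0.05, 2, 4, 6 and 2 pairs of these lists lay below it, and limma voom on the recovered reads called 1 pair of ribosome biogenesis and 0 of the others. In smaller lists, no pair was called among 14 of phosphate uptake and signalling, 17 of the cell cycle and 7 of histones and chromatin assembly. In these, 3, 0 and 3 pairs lay at an unadjusted p under 0.05, and limma voom called 0. With 5.2% of all pairs called, lists of this size can hold no call without differing from other genes. Without the first maltose culture 2 pairs of ribosome biogenesis were called, and none of the former 4 lists had a called pair without any of the other cultures. In further lists, against 5.2% of all pairs, called pairs numbered 3 of 24 (12.5%) for general stress and hydrophilins and 1 of 7 (14.3%) for oxygen and heme. They numbered 4 of 31 (12.9%) for sulfate assimilation and methionine and 1 of 17 (5.88%) for iron and copper uptake. Counts were 1 of 23 (4.35%) for ergosterol synthesis, 1 of 20 (5.0%) for fatty acids and lipids and 2 of 19 (10.5%) for peroxisomal fatty acid oxidation. Aroma genes had 1 of 8 (12.5%) and thiamine and vitamin B6 1 of 9 (11.1%). Autophagy and vacuolar proteases had 2 of 38 (5.26%) and translation factors 1 of 33 (3.03%). Several of these shares lie near that of all pairs. With the filter applied to the glucose and maltose cultures only, 14 pairs of these lists were called. Omitting the first or second glucose culture left 4 and 7 called pairs of these 11 lists, which hold 18 calls together, and omitting the first or second maltose culture 22 and 9. A pair that missed the threshold is not thereby shown to be unchanged.

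**Figure D4:**
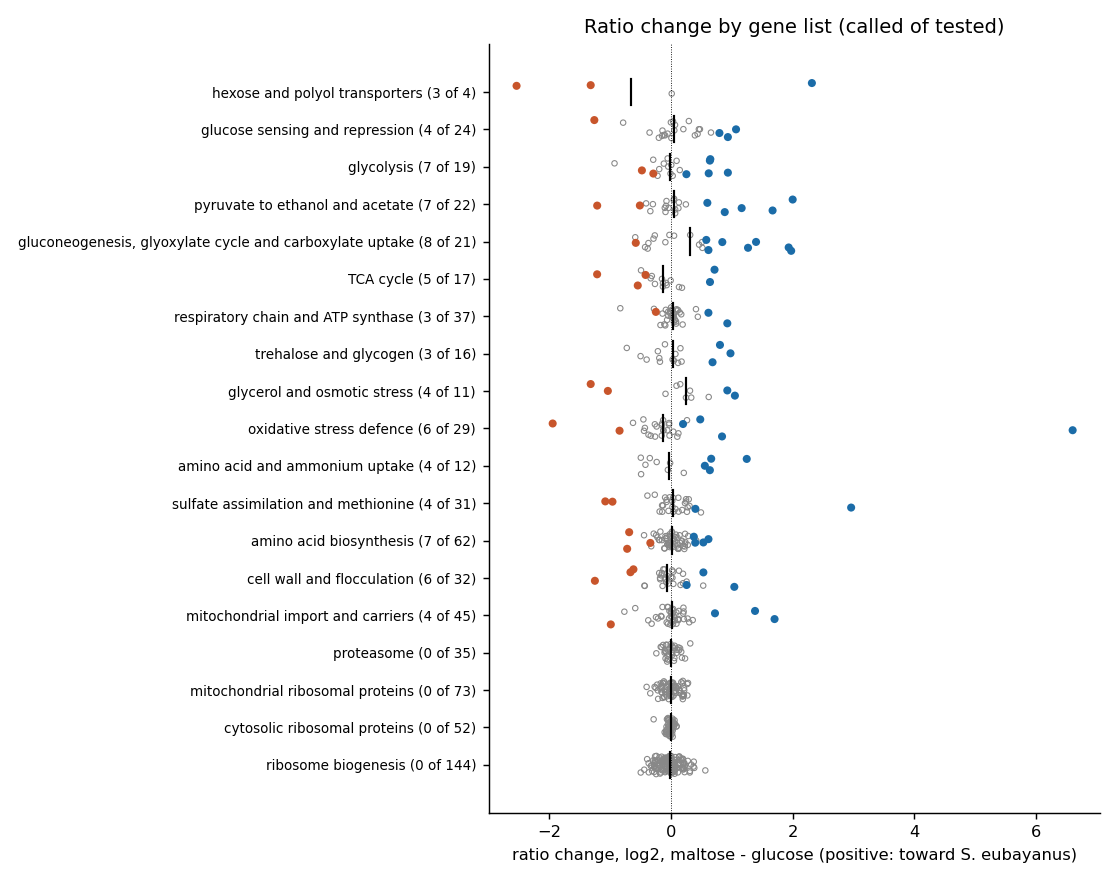
Ratio change on maltose (log2, horizontal) of every tested pair in 19 gene lists, filled where called (blue toward S. eubayanus, red toward S. cerevisiae), with a bar at the median of each list. Called pairs (filled) are seen in each of the upper 15 lists, while the ribosomal and proteasome lists hold none and gather around 0.

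A ratio can change because 1 copy moves or because both move unequally, and all of these cases occurred. In a separate limma fit of 10990 single genes averaging 1 FPKM or more, 1258 (11.4%) differed between the sugars. Among the 110 pairs that moved toward S. eubayanus, the S. eubayanus copy alone rose in 33, both copies rose in 23, the S. cerevisiae copy alone fell in 15, both fell in 7 and the copies moved in opposite directions in 2, ARI1 and ADH2. In the remaining 30 neither copy passed its own test. Among the 74 pairs that moved toward S. cerevisiae, both copies rose in 18, the S. eubayanus copy alone fell in 14, the S. cerevisiae copy alone rose in 13, both fell in 5 and neither was called in 23. The signs of the copies' changes were the same in 71 of 110 and 52 of 74 called pairs, against 2922 of 3540 tested pairs. The copy with the larger change was the S. eubayanus one in 71 of the former and the S. cerevisiae one in 43 of the latter. Without the first or second glucose culture neither copy passed its own test in 117 and 117 of the 184 pairs, against 53 with all cultures and 23 without the first maltose culture. Since the ratio is built from these copies, the counts describe the called pairs and are no separate evidence. In bulk RNA, fewer cells transcribing a copy and less RNA of it per cell cannot be told apart.

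**Figure D5:**
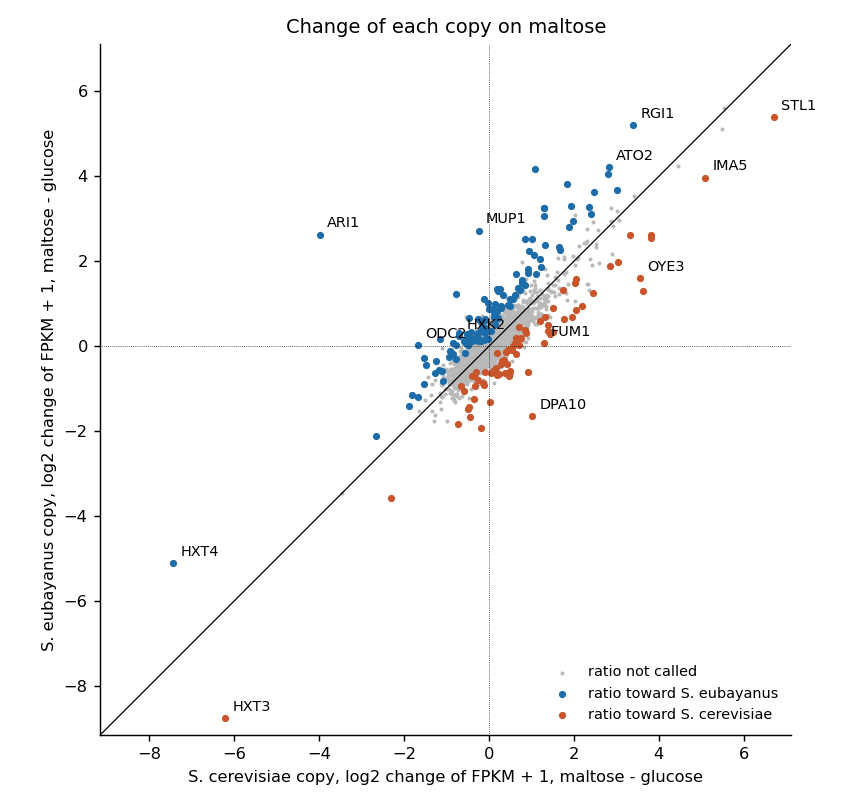
Change of the S. cerevisiae (horizontal) and S. eubayanus (vertical) copy on maltose, in log2 of FPKM + 1, for 3540 pairs, with the diagonal of equal change. Called pairs above the diagonal (blue) moved toward S. eubayanus, those below it (red) toward S. cerevisiae, and most lie in the quadrants where both copies changed in the same direction.

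The called pairs were spread over all chromosomes of both subgenomes. Medians of the ratio change per chromosome ranged from −0.0215 (chromosome 4) to 0.0288 (chromosome 10) in the S. eubayanus numbering and from −0.0535 (chromosome 2) to 0.0266 (chromosome 13) in that of S. cerevisiae, and the share of called pairs from 3.03% to 13.3% in the former. With single cultures left out, the chromosome median farthest from 0 lay between −0.0421 and 0.0445. The SD of a chromosome median between replicates was typically 0.0185. Chromosome 16, with 277 pairs, had median log2 ratios of −0.319 and −0.308 on glucose and −0.291 and −0.332 on maltose, so that its S. eubayanus copies were lower in every culture, with a median change of 0.0122. Of the called pairs, 22 stood directly beside another called pair in the order of gene models on an S. eubayanus chromosome, in 11 couples. How many couples the number of called pairs alone would give was not worked out, so the count does not show clustering. CIT1 and ATO2 on chromosome 14 moved in the same direction, and CWP1 and CWP2 on chromosome 11 in opposite directions, with CWP2, named after its value was seen, given first (0.26 and −0.67). The call of CWP2 was lost when any single glucose or maltose culture was left out. Without strand information in the library kit, reads of overlapping neighbours cannot be separated. The models of both copies were within 10% of each other in length in 87.0% of called and 91.9% of tested pairs.

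The S. eubayanus genes of the called pairs were also read in S. eubayanus strains IMX1765 and IMX1939, which hold no S. cerevisiae subgenome and whose libraries did not enter the ratios. Of the 110 genes from pairs that moved toward S. eubayanus, 77 were higher on maltose than on glucose in IMX1765 and 85 in IMX1939, with median changes of 0.403 and 0.669. For the 74 genes from pairs that moved toward S. cerevisiae the numbers were 33 and 42, with medians of −0.111 and 0.0501. Over all 3540 tested pairs, 1664 and 2052 genes were higher on maltose, with medians of −0.0266 and 0.0932. In limma, 30 of the 110 and 20 of the 74 genes were called in IMX1765, and 50 and 27 in IMX1939. Called shares in these strains were 9.34% and 16.2% over all genes and 10.2% and 18.2% over the genes of all tested pairs. The first maltotriose library of IMX1765 in that fit has only 318922 reads, and without it the counts were 54 and 36 in IMX1765 and 66 and 37 in IMX1939. Without single glucose or maltose cultures of the strain, between 5 and 9 of the former and between 5 and 6 of the latter genes were called in IMX1765, and between 27 and 42 and between 8 and 16 in IMX1939. These counts describe the same sugar change in other strains and were not tested against those of the hybrid. For the fits with a library left out, no share over all genes is given, so their counts cannot be set against a background.

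As a check of these strains, SeMALT1, a maltose transporter gene, had 14.1 and 16.2 FPKM on maltose in IMX1765 and 1.04 and 0.921 FPKM in IMX1939, where it is deleted. In single genes, the log2 difference of the S. eubayanus copy between maltose and glucose was of similar size in the hybrid and the strains for some genes and not for others. For SeARI1 it was 2.63 in the hybrid, 2.07 in IMX1765 and 2.001 in IMX1939, for SeHXT3 −8.75 in the hybrid, −8.65 in IMX1765 and −8.47 in IMX1939 and for SeIMA5 3.97 in the hybrid, 3.92 in IMX1765 and 3.97 in IMX1939, and all of these passed the test in limma. For SeCYB2 it was 3.82 in the hybrid, 4.01 in IMX1765 and 6.81 in IMX1939, and for SeICL1 3.24 in the hybrid, 4.33 in IMX1765 and 5.45 in IMX1939. SeODC2, whose partner fell in the hybrid, had differences of −0.075 in IMX1765 and −0.0012 in IMX1939, neither past the test. For SeADH2 the difference was 1.24 in the hybrid, 3.67 in IMX1765 and 5.70 in IMX1939, and for SeMUP1 2.72 in the hybrid, 0.99 in IMX1765 and 2.10 in IMX1939, and in both genes the IMX1765 value did not pass. SeDPA10, which fell in the hybrid, had −1.01 in IMX1765 and 0.15 in IMX1939, which did not pass. The strains and the hybrid differ in genotype and in the MAL activator genes they carry, so that these values stand side by side only, and the differences between strains were not tested.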

How the data were processed

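Libraries were made with the TruSeq RNA version 2 kit, which does not mark strand, and sequenced in pairs. The authors aligned reads with STAR 2.5.3a (version per the submitters' processing notes), for the hybrid to an artificial reference of the CDFM21L.1 and CBC-1 assemblies, and discarded ambiguous reads. Reads were counted per gene, with featureCounts of Subread 1.6.3 in these notes and htseq-count in the methods, and the authors deposited FPKM calculated with edgeR. FPKM times gene length gave whole reads for all values within 0.05 reads. Rows were joined by systematic name, and the log2 ratio of (FPKM + 1) of both copies was computed. Limma 3.58.1 (R 4.3.3) was fitted to the 6 hybrid libraries with 1 mean per sugar and a variance trend on the lower copy, after a filter at a mean of 10 FPKM in each copy. P-values were adjusted over all pairs tested and called below 0.05. Single copies and the S. eubayanus strains were fitted likewise with a filter at 1 FPKM. Scripts were tested on simulated data. Named pairs were the 12 largest called changes in each direction, up to 4 called pairs by size per gene list and the tested pairs of glucose sensing. Pairs and lists were chosen with earlier results of these data known. Gene names came from the files and, by systematic name, from RefSeq S288C for 4441 pairs. Alternatives were other pseudocounts, filters, scalings, models and the omission of single cultures. Near-identical genes share reads and their values are uncertain. P-values rest on the spread between 2 cultures of 1 strain, pooled over the groups of each fit and shrunk toward a variance trend over pairs or genes.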

Additional observations from a re-analysis of the deposited data

Results flagged for a closer look

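In 4 of 103 named pairs, the S. eubayanus gene lay on one side of its glucose values in both maltose cultures of the hybrid and on the other side in all maltose cultures of both S. eubayanus strains. The difference between hybrid and strains was not tested, and the pattern was counted among the named pairs only, not over all pairs tested. SeAGP1, an amino acid permease gene, had 7.58 and 9.63 FPKM on glucose and 124 and 119 FPKM on maltose in the hybrid. It had 98.9 and 126 FPKM on glucose and 61.3 and 75.5 FPKM on maltose in IMX1765 and 199.99 and 239 FPKM on glucose and 34.0 and 52.6 FPKM on maltose in IMX1939. The log2 differences were 3.68 in the hybrid, −0.705 in IMX1765 and −2.34 in IMX1939. SeCTA1, the peroxisomal catalase gene, had 4.71 and 4.40 FPKM on glucose and 3.98 and 2.43 FPKM on maltose in the hybrid. It had 4.90 and 4.38 FPKM on glucose and 13.7 and 10.8 FPKM on maltose in IMX1765 and 5.71 and 7.18 FPKM on glucose and 32.9 and 23.3 FPKM on maltose in IMX1939. The log2 differences were −0.426 in the hybrid, 1.23 in IMX1765 and 1.95 in IMX1939. SeHXK2, the hexokinase 2 gene, had 279.7 and 348 FPKM on glucose and 371 and 364 FPKM on maltose in the hybrid. It had 607 and 648 FPKM on glucose and 457 and 534 FPKM on maltose in IMX1765 and 673 and 767 FPKM on glucose and 538 and 459 FPKM on maltose in IMX1939. The log2 differences were 0.237 in the hybrid, −0.344 in IMX1765 and −0.531 in IMX1939. SeLSC1, a succinyl coenzyme A ligase subunit gene, had 281 and 253.8 FPKM on glucose and 253.5 and 246 FPKM on maltose in the hybrid, nearly an overlap. It had 631 and 626 FPKM on glucose and 916 and 816 FPKM on maltose in IMX1765 and 574 and 652 FPKM on glucose and 983 and 879 FPKM on maltose in IMX1939. The log2 differences were −0.0960 in the hybrid, 0.460 in IMX1765 and 0.603 in IMX1939. In the hybrid, SeAGP1 alone of these passed its own test, and the partner ScAGP1 had 4.08 and 4.75 FPKM on glucose and 44.8 and 41.0 FPKM on maltose. In IMX1939, SeAGP1 and SeLSC1 passed (limma, Benjamini-Hochberg adjusted p = 0.00563 and 0.0274), and SeCTA1 and SeHXK2 did not. None of the 4 genes passed in IMX1765.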

How the results depend on the processing

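Under other pseudocounts, filters and scalings the number of called pairs remained within 1.5 times 184, with 169 at a pseudocount of 0.1 FPKM, 196 with a filter at 1 FPKM, 198 with no filter, 184 with rescaled libraries, 189 with centred ratios and 216 with the 4 libraries alone. Limma voom on the recovered reads called 193, of which 147 were shared, and 53.9% of its calls, against 59.8%, went toward S. eubayanus. No called pair changed sign in any of these fits. Without a variance trend 121 pairs were called, 47 of them toward S. cerevisiae, and with a change of at least 1 required 57, 31 toward S. eubayanus and 26 toward S. cerevisiae. A filter over the glucose and maltose libraries alone, chosen after seeing the data, left 155 calls, 152 of them shared. Of the 32 calls lost under it, 25 were of pairs no longer tested, among them DPA10, MUP1, SIP18, ADH2, ECM13, ICL1, TKL2, YOR062C and ACS1, and 7 missed the threshold. With a filter at 1 FPKM 24 of the 25 were called, in a fit whose variance trend still used the maltotriose cultures. Leaving out single cultures gave 59 to 217 calls, 36 to 123 toward S. eubayanus and 23 to 94 toward S. cerevisiae. In these fits the S. eubayanus copy alone passed in 25 to 45 pairs, the S. cerevisiae copy alone in 15 to 31, both in 26 to 95 and neither in 23 to 117, and the chromosome median farthest from 0, −0.0535 with all cultures, was −0.0421 to 0.0445. Genes called in IMX1765 numbered 5 to 9 and 5 to 6 for the directions toward S. eubayanus and S. cerevisiae, and in IMX1939 27 to 42 and 8 to 16. Without the shallow maltotriose library they numbered 54 and 36 in IMX1765 and 66 and 37 in IMX1939. The causes of these differences were not tested.

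With the replicate number as a block 194 pairs were called, 174 of them shared, 111 toward S. eubayanus and 83 toward S. cerevisiae. Among named pairs SER33, DAL5 and ATH1 lost the call under the block. The labels give the number no meaning beyond the culture, and deviations of same-numbered glucose and maltose libraries had a correlation of 0.172, with −0.0320 and −0.0396 for the pairings with maltotriose, so that the samples were not treated as paired. Values of copies below 1 FPKM rest on few reads, and there are 2 cultures per sugar.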
